A study of Mus musculus with 46 samples.

Results

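Western diet and high-fat diet were compared in livers of mice whose hepatic stellate cells lack Plvap, and each diet difference was set beside the same difference in littermate controls. The 9 knockout libraries, chosen by their labels, were 4 from western diet and 5 from high-fat diet, out of 46 in the series. The control pair added 5 western-diet and 5 high-fat libraries. All 4 groups were males of the C57BL/6JBomTac strain, kept on their diet for 6 weeks and fasted for 12 h before snap-frozen liver was taken. Fructose was added to the drinking water in the western-diet groups, while the high-fat groups drank plain water, so diet and fructose cannot be told apart. The labels give the same alleles, Plvaptm1.1Salm and the Lrat-cre transgene, in the genotype field of knockouts and controls and separate them by the words knockout and control, so the alleles the controls carry are not resolved here. The labels do not state the ages, and they do not say whether each library came from its own animal, so that p-values measure the spread between libraries.

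PLVAP, the product of Plvap, builds the diaphragms across fenestrae, caveolae and channels of the endothelium. Lrat-Cre recombines in hepatic stellate cells, pericytes of the sinusoid that store vitamin A. Sterols arriving in the liver hold the transcription factor SREBP2 in the endoplasmic reticulum, so that genes of cholesterol synthesis and LDL uptake are transcribed less, while oxysterols activate the LXR receptors, which drive sterol export. Fructose and saturated fat act through other regulators, among them ChREBP, SREBP1c and PPARA, on desaturation, elongation and oxidation of fatty acids.

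Plvap (ENSMUSG00000034845, GRCm39 chromosome 8, 71950409 to 71964396, minus strand) checked the labels. It stood at 5.38, 4.89, 6.23 and 5.69 counts per 1000000 (CPM, scaled by TMM library factors) in western-diet knockouts and at 5.02, 6.66, 8.69, 4.95 and 11.1 CPM in high-fat knockouts. Controls held 40.9, 26.7, 30.5, 21.1 and 28.5 CPM on western diet and 24.3, 29.3, 32.7, 31.6 and 25.7 CPM on high-fat diet, above every knockout library. The knockout mean was 18.8% of the control mean on western diet and 25.3% on high-fat diet, with an exact two-sided permutation p of 0.00794 in each diet, the smallest these group sizes allow. Between diets in the knockouts the levels overlapped, at 5.55 ± 0.562 CPM (SD, n = 4) on western diet and 7.28 ± 2.61 CPM (n = 5) on high-fat diet, with a log2 fold change of -0.40 ± 0.22 (SE, edgeR adjusted p = 0.249). In bulk tissue, fewer cells of a type and less RNA per cell cannot be told apart, which applies to every level below.

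Knockout libraries held 10822048 to 18821804 counts, within the 6656342 to 21570506 of the 19 libraries in the table, and no pair of libraries within a group was identical. Hepatocyte genes dominated every library: albumin alone was at 35880 to 59660 CPM in western-diet and 49280 to 71580 CPM in high-fat knockouts, against 23310 to 33650 CPM in western-diet and 20930 to 28510 CPM in high-fat controls. The hepatocyte markers summed to 105360 to 129590 CPM in western-diet and 113540 to 140140 CPM in high-fat knockouts, against 83120 to 97573 CPM in western-diet and 78214 to 87539 CPM in high-fat controls. Every knockout library lay above every control library in both, and the part of this in the differences between genotypes was not tested. Replicate B of the western-diet knockouts carried 62.2 CPM of 10 skeletal muscle genes, Acta1 and Ckm among them, against at most 1.09 CPM in the other knockout libraries. Replicate E of the high-fat knockouts had the highest level of many sterol genes.

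The diets differed at 1143 of 13533 tested genes in the knockouts (8.45%), of which 600 were higher (4.43%) and 543 lower (4.01%) on western diet, at an adjusted p under 0.05 in edgeR's quasi-likelihood test. In the controls 283 genes were called (2.09%), 149 higher (1.1%) and 134 lower (0.99%). At an unadjusted p under 0.05 there were 26.8% of all genes in knockouts and 15.1% in controls. The knockouts kept 94 of the 283 control differences in the same direction, which is 33.2% of the control calls and 8.22% of the knockout calls, and none was called in opposite directions. A further 189 genes were called in controls alone and 1049 in knockouts alone. The number of knockout calls rested on single libraries: it was 391, 620, 368 or 367 without replicate A, B, C or D on western diet, 370 without replicate E on high-fat diet, and 1715 without replicate A of the western-diet controls, which share the dispersion estimate. The count of kept genes was 51, 41 and 51 without western-diet knockouts A, C and D, 62 without high-fat knockout E and 56 without high-fat control C.

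A call in one genotype and its absence in the other is not a difference between them, so the difference of the diet effects was tested on its own. edgeR called none of 13533 genes (0%), with a smallest adjusted p of 0.132 and 1546 genes at an unadjusted p under 0.05 (11.4%). DESeq2 called 55 genes, and the log2 fold change on western diet was the higher one in knockouts for 24 of them and the lower one for 31. Of those 55, 15 were among the genes called by edgeR in controls alone, 31 among those called in knockouts alone and 1 among those called in both. The 2 pairs of groups share no library. Across all tested genes the knockout and control log2 fold changes had the same sign for 63.4%, with a Pearson correlation of 0.419 and a Spearman correlation of 0.378, a description across genes that share libraries within each genotype.

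The genes called in both genotypes had a median absolute log2 fold change of 0.86 in knockouts and 0.91 in controls. The 189 genes called in controls alone had a median of 0.25 along the control direction in knockouts and 0.75 in controls, and 162 of them (85.7%) had the same sign. Of these, 56 also had an unadjusted p under 0.05 in the knockouts. The 1049 genes called in knockouts alone had a median of 0.55 in knockouts and 0.14 along that direction in controls, and 863 (82.3%) had the same sign. The set called in both was chosen for a call in each genotype. The sets called in one genotype alone were chosen for a call there and none in the other. Both the large and the small medians are shaped by this choice and are a description. The difference had an unadjusted p under 0.05 for 98 of the 189 (51.9%) and 496 of the 1049 (47.3%), against 11.4% of all genes. The sets were chosen on the same contrasts that make up the difference. These shares are therefore raised by the choice and test nothing.

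**Figure D1:**
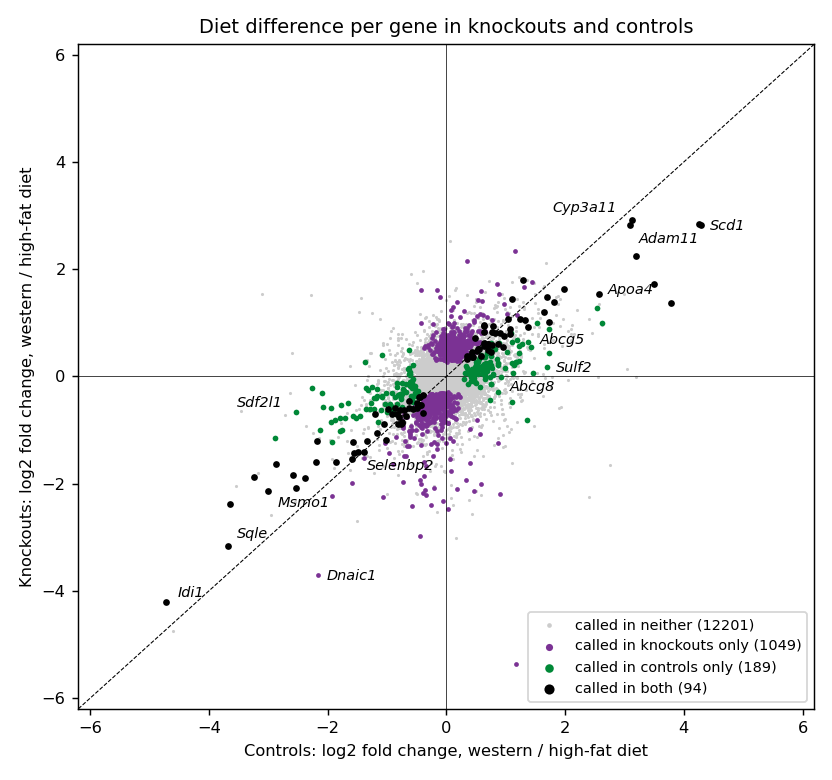
Log2 fold change between western and high-fat diet of each of 13533 tested genes, in Plvap knockouts against the same in littermate controls, with genes colored by the genotype in which they were called. The 94 genes called in both lie in the lower left and upper right quadrants around the dashed line of equal change. The 1049 called in knockouts alone spread mostly up and down, and the 189 called in controls alone mostly left and right.

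The knockout diet difference also ran along base composition. Its log2 fold changes had a Spearman correlation of -0.432 with the GC content of the gene's annotated transcripts over 13512 genes, against -0.073 in the controls. For the difference between genotypes this correlation was -0.376. The median log2 fold change was 0.33 in the lowest decile of GC content and -0.20 in the highest, against 0.04 and -0.02 in controls. Genes called higher in western-diet knockouts had a median GC content of 42.8% and genes called lower 54.3%, with 49.8% over all tested genes. Taken library by library, against the mean of all 19, western-diet knockouts ranged from -0.308 to -0.17 and high-fat knockouts from 0.00401 to 0.478, with no overlap (exact permutation p = 0.0159, 0.101 after adjustment over 19 library measures). Western-diet controls ranged from -0.287 to 0.16 and high-fat controls from -0.131 to 0.068.

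With the GC trend removed from each library, an alternative chosen after seeing the data, the knockouts had 326 calls (2.41%), 183 higher (1.35%) and 143 lower (1.06%), of which 264 were among the 1143. The controls had 350 (2.59%), 191 higher (1.41%) and 159 lower (1.17%). Then 61 genes were called in both, 18.7% of the knockout and 17.4% of the control calls, and edgeR again called the difference between genotypes for none (0%), with 1160 genes at an unadjusted p under 0.05. Whether the trend comes from the RNA or from library preparation was not tested. DESeq2 was not run with the trend removed, so its adjusted p-values for the difference are not corrected for GC content. In edgeR with the trend removed, the differences of Abcg8, Csrnp1 and Dock4 were -0.83, -1.24 and 0.85, each with an adjusted p of 0.269. Counts after that correction stand beside the gene groups called in knockouts. List counts are to be read against the 8.45% of all genes called in knockouts and 2.09% in controls before correction. Of the 78 named genes that were called in knockouts, all kept their sign and 46 stayed called. Without high-fat knockout E all 78 kept their sign and 50 stayed called, and without western-diet knockout B all kept it and 56 stayed called. Over all genes, leaving out western-diet knockout A, C or D left fewer calls than leaving out B. A gene called without E and without B may therefore still be lost without another library.

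**Figure D2:**
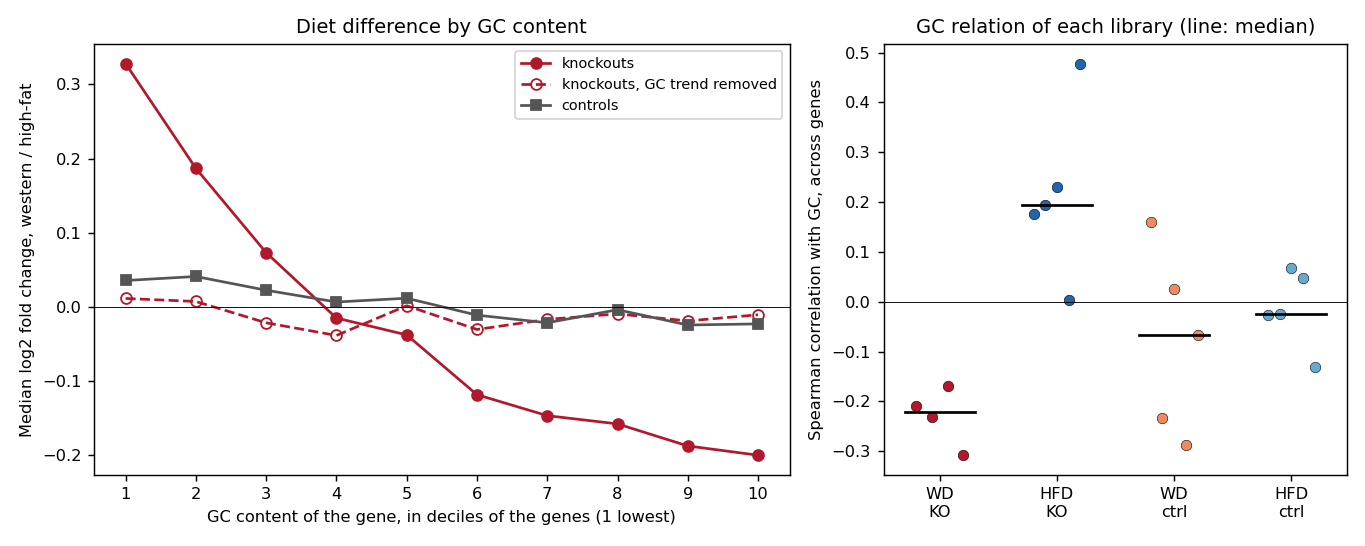
Median log2 fold change between western and high-fat diet in deciles of the tested genes ordered by GC content, for knockouts (as counted and after removal of the GC trend) and controls, with the correlation of each library with GC content at the right. The knockout medians are 0.33 in the lowest decile and -0.20 in the highest, and lie between -0.04 and 0.01 after removal.

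Cholesterol synthesis genes were lower on western diet in both genotypes. Of 21 tested genes of the pathway, 12 fell and none rose in knockouts, with a median log2 fold change of -1.06 beside -0.04 over all tested genes, and in controls 13 fell and none rose, with a median of -1.17. There were 11 genes called in both genotypes. The difference between the genotypes had an unadjusted p under 0.05 for 1 of the 21, against 11.4% of all genes. After GC correction 8 fell in knockouts. Leaving out single knockout libraries left 5 to 12 genes lower: 8 without high-fat knockout E (median -0.70), 10 without western-diet knockout B, 5 without C or D and 8 without A.

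Among the first steps of the pathway, Mvk, which phosphorylates mevalonate, stood at 3.23, 3.98, 3.66 and 2.7 CPM in western-diet knockouts against 8.73, 7.09, 9.39, 7.81 and 18.3 CPM in high-fat knockouts. It fell by 1.60 ± 0.28 on the log2 scale (adjusted p = 0.00638, 0.0114 after GC correction). The groups did not overlap, and Mvk stayed called with any single knockout library left out. Idi1 (ENSMUSG00000058258, GRCm39 chromosome 13, 8935537 to 8942487), the isomerase that makes the allylic isoprenoid unit, was at 0, 0.456, 0.0642 and 0.0575 CPM against 2.35, 0.501, 1.91, 2.95 and 7.05 CPM. It fell by 4.21 ± 0.81 (adjusted p = 0.0094), the largest change of the 12 that fell, although western-diet replicate B lay just under high-fat replicate B. Mvd, which makes isopentenyl diphosphate, had a log2 fold change of -1.87 ± 0.54 (adjusted p = 0.0412) that was not called without high-fat knockout E (0.121), without western-diet knockout B (0.0703) or after GC correction (0.0866).

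Hmgcs1, the synthase that makes HMG-CoA, did not pass in the knockouts. It was at 35.1, 38.1, 42.8 and 35.7 CPM in western-diet knockouts against 60.5, 33.5, 36.3, 46.5 and 148 CPM in high-fat knockouts. The groups overlapped, and replicate E of high-fat diet stood far above the western-diet range. Its log2 fold change was -0.78 ± 0.38 (adjusted p = 0.206) in knockouts and -1.51 ± 0.36 (0.0382) in controls, with a difference of 0.74 and a 95% interval from -0.36 to 1.83.

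In the later, sterol-forming steps, Sqle (ENSMUSG00000022351, GRCm39 chromosome 15, 59186926 to 59203041), the squalene epoxidase, stood at 2.93, 2.93, 2.44 and 2.41 CPM in western-diet knockouts and at 16.1, 8.02, 14.8, 15.5 and 64.8 CPM in high-fat knockouts. Controls had 3.03, 4.48, 2.64, 2.30 and 2.26 CPM on western diet and 42.2, 41.9, 47.3, 45.4 and 11.9 CPM on high-fat diet. All western-diet libraries of both genotypes lay below all high-fat ones, and the high-fat groups each had a library apart, E being highest in knockouts and lowest in controls. Sqle had a log2 fold change of -3.17 ± 0.59 in knockouts (adjusted p = 0.00947) and -3.68 ± 0.54 in controls (0.00166). Their difference was 0.51 with a 95% interval from -1.14 to 2.16, wide enough to hold no change and a change of over 1 log2 unit in either direction.

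Msmo1, the methyl sterol oxidase, was at 12.3, 18.5, 13.0 and 13.0 CPM in western-diet knockouts against 48.0, 29.0, 52.5, 51.3 and 133 CPM in high-fat knockouts, and fell by 2.14 ± 0.39 (adjusted p = 0.00939). Cyp51, the lanosterol demethylase, had 18.6, 17.1, 18.8 and 32.1 CPM against 65.8, 27.9, 79.6, 88.3 and 125 CPM, and fell by 1.83 ± 0.35 (0.0103) with an overlap between western-diet D and high-fat B. Nsdhl, a sterol dehydrogenase, had 5.09, 8.48, 4.11 and 3.51 CPM against 10.1, 12.8, 12.3, 11.4 and 32.8 CPM and fell by 1.59 ± 0.35 (0.0154). It was called in 7 of 9 runs with 1 knockout library left out. In controls these 3 enzymes had log2 fold changes of -3.00, -2.59 and -2.20.

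**Figure D3:**
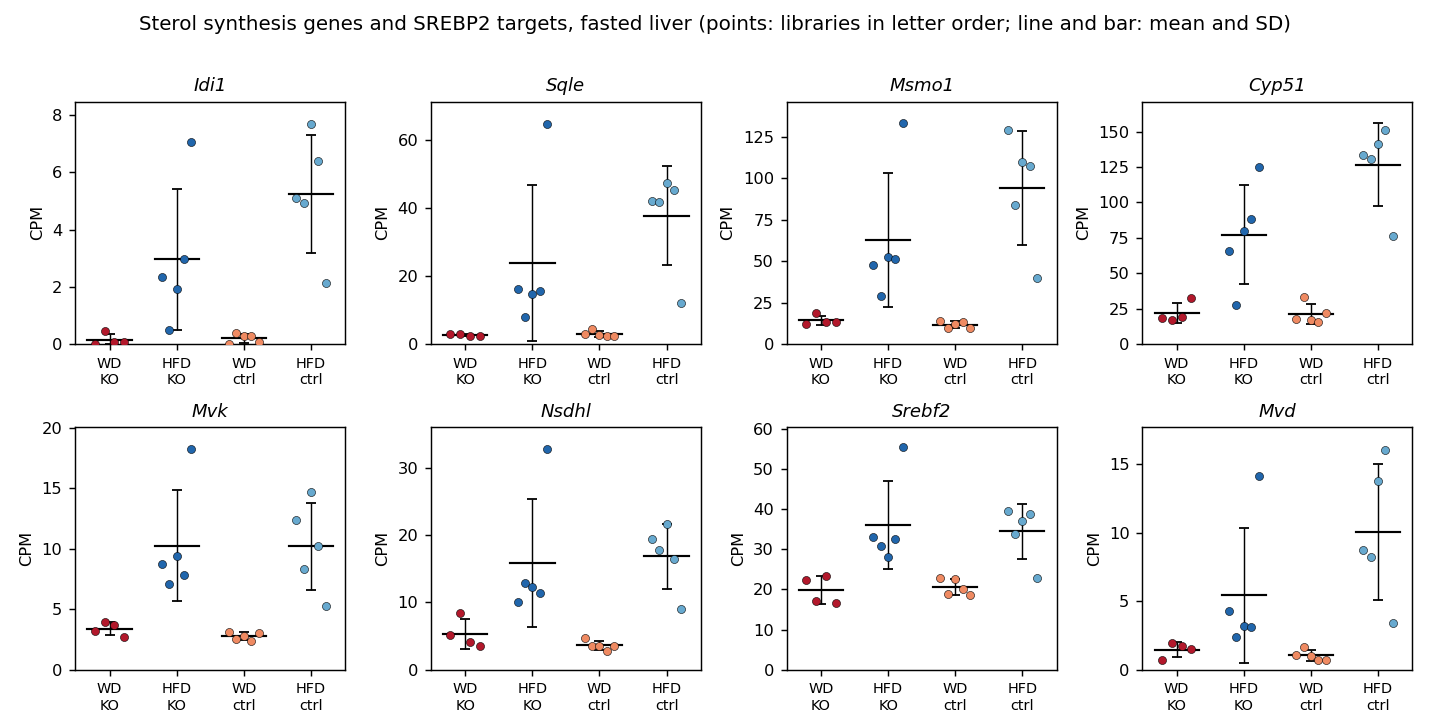
CPM of 8 genes of sterol synthesis and its regulation in each library of the 4 groups, with group means and SD. Western-diet libraries sit at or near the bottom in both genotypes, and replicate E of the high-fat knockouts is the highest knockout library in each panel.

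Srebf2, which encodes SREBP2 itself, was at 22.3, 17.2, 23.4 and 16.6 CPM in western-diet knockouts against 33.1, 30.9, 28.0, 32.6 and 55.5 CPM in high-fat knockouts. It fell by 0.86 ± 0.18 (adjusted p = 0.0127) with no overlap between groups, and the controls had a log2 fold change of -0.74 (0.0258).

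Of 15 tested SREBP2 targets outside or at the edge of synthesis, 3 of which also belong to the synthesis list (Idi1, Nsdhl and Sc5d), 7 fell in knockouts and 7 in controls, with medians of -0.64 and -0.74. After GC correction 3 fell in knockouts. The count was 3 without high-fat knockout E, 10 without western-diet knockout B, 3 without A and 2 without C or D. Stard4, a sterol carrier of the cytosol, was called in controls alone. It had 34.7, 89.7, 33.1 and 58.6 CPM in western-diet knockouts against 96.8, 37.7, 129, 112 and 113 CPM in high-fat knockouts, which overlapped: high-fat B lay below western-diet B and D. Its log2 fold change was -0.85 (adjusted p = 0.108) in knockouts and -1.95 (0.00307) in controls, a difference of 1.1 (95% interval 0.16 to 2.04, adjusted p = 0.377). It was called in knockouts without western-diet B (0.0452).

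Promoter sequence is shown for 4 of the genes that fell in both genotypes, since SREBP2 acts on promoters together with NF-Y, which binds CCAAT boxes. The 250 bases before the start of each gene are taken from RefSeq (GRCm38.p6), for Idi1 at chr13:8885356-8885605 (plus strand), Mvk at chr5:114444019-114444268 (plus strand), Cyp51 at chr5:4104698-4104947 (minus strand) and Srebf2 at chr15:82147019-82147268 (plus strand). They are written in the direction of the gene, with matches to CCAAT or its complement ATTGG in capitals.
Idi1: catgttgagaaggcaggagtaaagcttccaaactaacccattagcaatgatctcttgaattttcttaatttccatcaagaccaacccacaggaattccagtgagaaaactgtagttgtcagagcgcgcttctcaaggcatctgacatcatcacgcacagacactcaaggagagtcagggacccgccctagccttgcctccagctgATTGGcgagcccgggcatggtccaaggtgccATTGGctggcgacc
Mvk: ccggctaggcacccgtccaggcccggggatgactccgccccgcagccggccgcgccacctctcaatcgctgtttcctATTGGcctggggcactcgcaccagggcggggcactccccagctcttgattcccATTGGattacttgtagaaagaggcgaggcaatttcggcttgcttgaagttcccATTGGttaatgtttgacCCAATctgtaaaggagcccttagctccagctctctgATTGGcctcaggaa
Cyp51: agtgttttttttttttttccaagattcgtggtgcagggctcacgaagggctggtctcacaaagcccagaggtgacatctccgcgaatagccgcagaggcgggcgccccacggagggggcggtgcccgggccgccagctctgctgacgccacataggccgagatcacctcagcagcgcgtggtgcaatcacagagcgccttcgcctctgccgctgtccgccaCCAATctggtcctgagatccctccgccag
Srebf2: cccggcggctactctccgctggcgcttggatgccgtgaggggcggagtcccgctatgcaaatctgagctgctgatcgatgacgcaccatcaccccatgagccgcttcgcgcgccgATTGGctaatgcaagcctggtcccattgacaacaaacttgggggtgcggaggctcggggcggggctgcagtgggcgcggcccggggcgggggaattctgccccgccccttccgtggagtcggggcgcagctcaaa

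CCAAT was found on either strand in 11 of the 12 genes of the synthesis and SREBP2 target lists that fell in knockouts and had a promoter in the table, out of 17 that fell, and in 40.5% of all 10209 tested genes with a promoter there. It was also in 9 of the 11 list genes with a promoter that were not called lower, so that 20 of the 23 held it. Of the sequences shown, Mvk held 5 matches, Idi1 2, and Cyp51 and Srebf2 1 each. The sterol element written TCACNCCAC was in 1 of the 12 (Aldoc), with 1.31% over all, and in none of the windows shown. Aldoc was not called without high-fat knockout E (adjusted p = 0.0914). A match is a description of letters in the window.

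Among genes of fatty acid synthesis and remodelling, the knockouts kept the rise of Scd1 and Elovl5 on western diet. Scd1 (ENSMUSG00000037071, GRCm39 chromosome 19, 44382894 to 44396318), the stearoyl-CoA desaturase, was at 10994, 12257, 7055 and 6545 CPM in western-diet knockouts and at 586, 997, 1519, 173 and 3223 CPM in high-fat knockouts. It rose in knockouts by a log2 fold change of 2.83 ± 0.68 (adjusted p = 0.0237) and in controls by 4.29 ± 0.71 (0.00416), and the difference of -1.46 had a 95% interval from -3.40 to 0.48. Scd1 was called in 7 of 9 runs with 1 knockout library left out. Its adjusted p was 0.0517 without western-diet knockout B and at most 0.0563. Elovl5, which elongates polyunsaturated fatty acids, was at 859, 677, 726 and 699 CPM against 322, 496, 244, 399 and 316 CPM, and its rise of 1.06 ± 0.20 (0.00755) stayed called with any knockout library left out and after GC correction. The controls had 1.32 (0.000502). Of 24 lipogenic genes these 2 rose in knockouts and none fell (against 8.45% of all genes called), with a median of -0.16. Both stayed called after GC correction. In controls 3 rose, Gpat4, a glycerol phosphate acyltransferase, with them.

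Gpat4 was at 188, 130, 160 and 164 CPM in western-diet knockouts and at 174, 194, 205, 176 and 169 CPM in high-fat knockouts, which overlap. Its log2 fold change was -0.19 (adjusted p = 0.373) in knockouts and 0.56 (0.0219) in controls, and the difference of -0.75 had a 95% interval from -1.14 to -0.37 (adjusted p = 0.191 in edgeR and 0.0338 in DESeq2). Fasn, the fatty acid synthase, had a log2 fold change of -0.79 ± 0.34 (adjusted p = 0.151) in knockouts and -0.42 (0.581) in controls. Of 23 genes of fructose and glucose use and ChREBP action, none was called in knockouts by edgeR or DESeq2, with 4 at an unadjusted p under 0.05 (against 26.8% of all genes), and 1 was called in controls. Khk, the ketohexokinase that starts fructose breakdown, had a log2 fold change of 0.07 ± 0.14 in knockouts (adjusted p = 0.778).

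Lipid-binding and lipoprotein genes that rose on western diet in both genotypes were Fabp2, Apoa4 and Hsd17b11. Fabp2, a fatty acid binding protein best known from intestine, had 313, 502, 398 and 413.7 CPM in western-diet knockouts against 177, 109, 150, 188 and 120 CPM in high-fat knockouts. Its log2 fold change was 1.45 ± 0.21 (adjusted p = 0.0024) in knockouts and 1.11 (0.00442) in controls, and it was called under every alternative run. Apoa4, an apolipoprotein of triglyceride-rich particles, had 1010, 1043, 611 and 550 CPM against 162, 273, 277, 394 and 281 CPM, a rise of 1.53 ± 0.33 (0.0136), with 2.58 in controls (difference -1.04, adjusted p = 0.397). Hsd17b11, a dehydrogenase on lipid droplets, had 394, 402, 479 and 497 CPM against 312, 301, 315, 310 and 285 CPM. It rose by 0.54 (0.0209), with 0.95 in controls, and was called in 6 of 9 runs with 1 knockout library left out. Its adjusted p was 0.0518 without high-fat knockout E.

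Of 23 lipid droplet and steatosis genes, 2 rose in knockouts (Fabp2 and Hsd17b11) and 2 fell (Bscl2, the seipin of droplet budding, and Cideb, which lipidates VLDL), while in controls 5 rose and none fell. Neither fall was called after GC correction, and Cideb was not called without high-fat knockout E (adjusted p = 0.157) or western-diet knockout B (0.0764). Cidec, a droplet fusion protein, was at 6.65, 4.37, 5.72 and 7.01 CPM in western-diet knockouts against 4.81, 3.44, 5.86, 9.14 and 5.34 CPM in high-fat knockouts, whereas controls had 21.3, 29.1, 10.8, 12.2 and 40.9 CPM on western diet and 9.15, 10.4, 8.63, 6.69 and 6.23 CPM on high-fat diet. The control groups did not overlap and the knockout groups did. The log2 fold change was 0.07 (adjusted p = 0.927) in knockouts and 1.46 (0.0194) in controls, a difference of -1.39 (95% interval -2.39 to -0.40, adjusted p = 0.306 in edgeR and 0.131 in DESeq2). Cidec and the other control-called list members named here were picked out after their values were seen.

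Of 27 PPARA targets 2 rose in knockouts, with a median of 0.13, and 4 in controls, with a median of 0.39. Over all tested genes 8.45% were called in knockouts and 2.09% in controls. After GC correction edgeR called none in knockouts and 6 in controls, where DESeq2 called 8. The control count was 0 without high-fat control D or E, and 1 without high-fat control C or western-diet control E. Cyp4a14, a fatty acid omega-hydroxylase, was at 3595, 2221, 3757 and 2757 CPM in western-diet knockouts and 1084, 1368, 433.5, 2410 and 626 CPM in high-fat knockouts. The groups overlapped at high-fat D, and its log2 fold change of 1.38 ± 0.42 (adjusted p = 0.0495) lay beside 1.81 (0.0258) in controls. Pdk4, which restrains pyruvate oxidation, had 1.15 (0.0373) in knockouts and 1.18 (0.0506) in controls. Neither was called without high-fat knockout E or western-diet knockout B, so both calls stand on the edge of the threshold.

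Drug-metabolising cytochromes rose on western diet in 3 of 21 cases in each genotype, 2 of them shared, with medians of 0.39 in knockouts and 0.52 in controls, and none was called in knockouts after GC correction, with a median of 0.19. Without western-diet knockout B 2 were called and the knockout median was -0.01, none was called without C, and 1 without western-diet A or high-fat E. Cyp3a11, the main hepatic Cyp3a, was at 2006, 3420, 4069 and 1508 CPM in western-diet knockouts and 764, 105, 162, 276 and 507 CPM in high-fat knockouts. It rose by 2.92 ± 0.67 (adjusted p = 0.0196, 0.052 after GC correction) in knockouts and 3.13 (0.0206) in controls. Cyp3a11 was called in 8 of 9 runs with 1 knockout library left out. Cyp3a25 rose by 1.06 (0.0258) and 1.25 (0.0163), but was not called in knockouts without high-fat E (0.0695) or western-diet B (0.0668). Cyp3a and Cyp4a genes have near-identical neighbours, so reads may be split among them.

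Of 29 tested male-biased genes governed by growth hormone, 1 rose and 2 fell in knockouts, and 1 rose and 4 fell in controls. The shares called over all genes were 8.45% in knockouts and 2.09% in controls. After GC correction none rose and 2 fell in knockouts. Selenbp2, a selenium-binding protein with a close paralog in Selenbp1, was at 214, 269, 326 and 336 CPM in western-diet knockouts and 706, 514, 1037, 871 and 662 CPM in high-fat knockouts, and fell by 1.40 ± 0.18 (adjusted p = 0.000918) beside a log2 fold change of -1.48 (5.65e-05) in controls. Susd4, a complement inhibitor, was at 22, 24.3, 19.7 and 15.5 CPM against 48.3, 55.2, 48.0, 57.1 and 60.4 CPM and fell by 1.40 (0.00636), as in controls (-1.40). Neither gene's diet groups overlapped in either genotype, and the 95% intervals of the differences between genotypes were -0.43 to 0.58 for Selenbp2 and -0.69 to 0.68 for Susd4. Hsd3b5, a male-specific steroid enzyme, was called in controls alone (-1.65, adjusted p = 0.00869, against -0.50, 0.343, in knockouts).

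The smallest p in both genotypes belonged to Adam11 (ENSMUSG00000020926, GRCm39 chromosome 11, 102652265 to 102671088), an ADAM family member without protease activity. It was at 44.2, 38.1, 50.6 and 43.0 CPM in western-diet knockouts and 5.17, 8.74, 6.50, 4.57 and 5.89 CPM in high-fat knockouts. Controls had 37.9, 28.9, 57.8, 51.2 and 28.6 CPM on western diet and 4.77, 3.39, 5.94, 3.13 and 6.48 CPM on high-fat diet. No western-diet library of either genotype came near a high-fat one. Adam11 had a log2 fold change of 2.83 ± 0.23 in knockouts (adjusted p = 2e-06) and 3.10 ± 0.24 in controls (4.57e-07), with a difference of -0.27 (95% interval -0.95 to 0.41). Lepr, the leptin receptor, was at 34.9, 8.41, 12.1 and 16.6 CPM against 2.25, 6.16, 2.19, 5.81 and 2.81 CPM in knockouts, a rise of 2.25 ± 0.47 (0.0141) with 3.20 (0.00124) in controls.

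Other kept changes included Gulo, whose product makes the precursor of vitamin C in mice, which fell by 0.60 (adjusted p = 0.00636), with a log2 fold change of -0.57 in controls. Serpinb1a, an inhibitor of neutrophil proteases, rose by 1.49 ± 0.32 (0.0136) beside 1.69 in controls, and Omd, a small leucine-rich matrix proteoglycan, by 1.79 ± 0.30 (0.00618) beside 1.29. Dio3os lies antisense to Dio3 and was counted on a strand setting not given in the sources used here. It rose by 2.84 in knockouts and 4.25 in controls. In knockouts it was called in 7 of 9 runs with 1 knockout library left out. Its adjusted p was 0.0585 without western-diet B and at most 0.0713. Dnaic1, a dynein chain of motile cilia, was at 0.196, 0.456, 0.321 and 0.402 CPM in western-diet knockouts and 1.52, 7.66, 8.05, 4.76 and 1.76 CPM in high-fat knockouts. It fell by 3.70 ± 0.65 (0.00638) with no overlap in knockouts. Unlike the kept genes, Dnaic1 was not called in controls, where it had -2.16 (0.0792) and the diet groups overlapped.

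Sterol export genes were among the diet differences called in controls and not in knockouts. Of 15 genes of LXR action, 4 rose in controls (Abcg5, Abcg8, Lpcat3 and Scd1) with a median of 0.38. In knockouts 2 rose (Scd1 and Smpdl3a) with a median of 0.09, edgeR called none without western-diet knockout A or B, and 1 after GC correction. The medians after that correction were 0.23 in knockouts and 0.41 in controls. Smpdl3a was not called without high-fat knockout E (adjusted p = 0.0937) or western-diet knockout B (0.082). The difference between genotypes had an unadjusted p under 0.05 for 4 of the 15, against 11.4% of all genes.

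Abcg8 (ENSMUSG00000024254, GRCm39 chromosome 17, 84983730 to 85007761, plus strand), a subunit of the transporter that secretes cholesterol into bile, was at 95.3, 99.9, 95.9 and 92.7 CPM in western-diet knockouts and 95.6, 114, 84.9, 95.2 and 95.8 CPM in high-fat knockouts. Controls had 128, 91.5, 151, 162 and 122 CPM on western diet and 76.6, 72.3, 68.9, 52.2 and 73.9 CPM on high-fat diet. The knockout groups overlapped throughout and all lay above the high-fat controls, while the control groups did not overlap. In knockouts its log2 fold change was -0.02 ± 0.14 (adjusted p = 0.956), a value that changes sign with the scaling, and it was 0.92 ± 0.13 (0.00041) in controls. The difference of -0.94 had a 95% interval from -1.33 to -0.55, an adjusted p of 0.132 in edgeR and of 0.00401 in DESeq2.

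Its partner Abcg5 (minus strand, 84965662 to 84990439), which overlaps Abcg8 so that reads of the shared stretch may not be told apart, was at 120, 130, 149 and 128 CPM in western-diet knockouts against 101, 117, 73.0, 82.6 and 78.0 CPM in high-fat knockouts. These groups did not overlap, but the log2 fold change of 0.55 ± 0.19 was not called (adjusted p = 0.0759), beside 1.43 ± 0.19 (0.000293) in controls and a difference of -0.88 (95% interval -1.44 to -0.33, adjusted p = 0.274). Lpcat3, which puts polyunsaturated chains into phospholipids, was at 86.8, 93.7, 89.5 and 80.6 CPM against 77.8, 76.5, 77.8, 86.8 and 85.8 CPM in knockouts. Controls had 90.9, 90.4, 88.5, 89.6 and 94.8 CPM on western diet and 60.5, 63.0, 58.2, 56.1 and 61.5 CPM on high-fat diet, so that high-fat knockouts lay above high-fat controls. The log2 fold change was 0.12 ± 0.08 (0.358) in knockouts and 0.60 ± 0.07 (0.000118) in controls, and the difference of -0.49 (95% interval -0.71 to -0.26) had an adjusted p of 0.191 in edgeR and 0.00224 in DESeq2.

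Sulf2, an extracellular sulfatase that trims heparan sulfate, was at 8.12, 11.1, 11.1 and 8.45 CPM in western-diet knockouts and 8.52, 11.8, 4.03, 8.19 and 10.2 CPM in high-fat knockouts. Controls had 15.1, 13.8, 20.7, 18.3 and 17.5 CPM on western diet and 5.81, 4.02, 5.22, 4.98 and 6.48 CPM on high-fat diet. The diets separated in controls and not in knockouts, with log2 fold changes of 0.18 ± 0.21 (adjusted p = 0.625) in knockouts and 1.69 ± 0.21 (0.000118) in controls. The difference of -1.51 (95% interval -2.14 to -0.89) had an adjusted p of 0.132 in edgeR and 0.00377 in DESeq2. Psmd9, a chaperone of proteasome assembly, had -0.05 (0.772) and 0.65 (0.000502), with a difference of -0.70 (95% interval -0.99 to -0.42, 0.132 in edgeR and 0.00377 in DESeq2).

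Genes of amino acid breakdown and the urea cycle were likewise called in controls alone. In knockouts edgeR called none of 23 genes, with 3 at an unadjusted p under 0.05 (against 26.8% of all genes) and 1 called by DESeq2, and the median was 0.16, while in controls 8 rose and none fell, with a median of 0.73. The difference had an unadjusted p under 0.05 for 9 of the 23, against 11.4% of all genes, with a smallest adjusted p of 0.201. Without single control libraries 5 to 11 rose in controls, and without high-fat knockout B 2 rose in knockouts. Hpd, the dioxygenase of tyrosine breakdown, was at 1880, 1787, 1709 and 1310 CPM in western-diet knockouts and 1590, 2294, 1603, 1701 and 2018 CPM in high-fat knockouts, against 1977, 1616, 2778, 2614 and 2516 CPM in western-diet and 1668, 1446, 1250, 1145 and 1304 CPM in high-fat controls. The diet groups overlapped in both genotypes, in controls through western-diet B, which lay below high-fat A. The log2 fold change was -0.14 (adjusted p = 0.631) in knockouts and 0.76 (0.0122) in controls. Their difference was -0.90 (95% interval -1.37 to -0.42, 0.201 in edgeR and 0.0347 in DESeq2).

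Agxt, which detoxifies glyoxylate, was at 453, 378.6, 410 and 356 CPM in western-diet knockouts against 334, 499, 274, 270 and 302 CPM in high-fat knockouts. The groups overlapped through high-fat B, with a log2 fold change of 0.25 (adjusted p = 0.398) beside 1.11 (0.00129) in controls and a difference of -0.86 (adjusted p = 0.272). Ass1, the argininosuccinate synthase of the urea cycle, had -0.29 (0.442) and 0.86 (0.0357), a difference of -1.15 (95% interval -1.79 to -0.50, 0.244 in edgeR and 0.0522 in DESeq2). Cps1, the first enzyme of the cycle, had 0.46 in knockouts and 0.85 in controls and was called in neither.

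**Figure D4:**
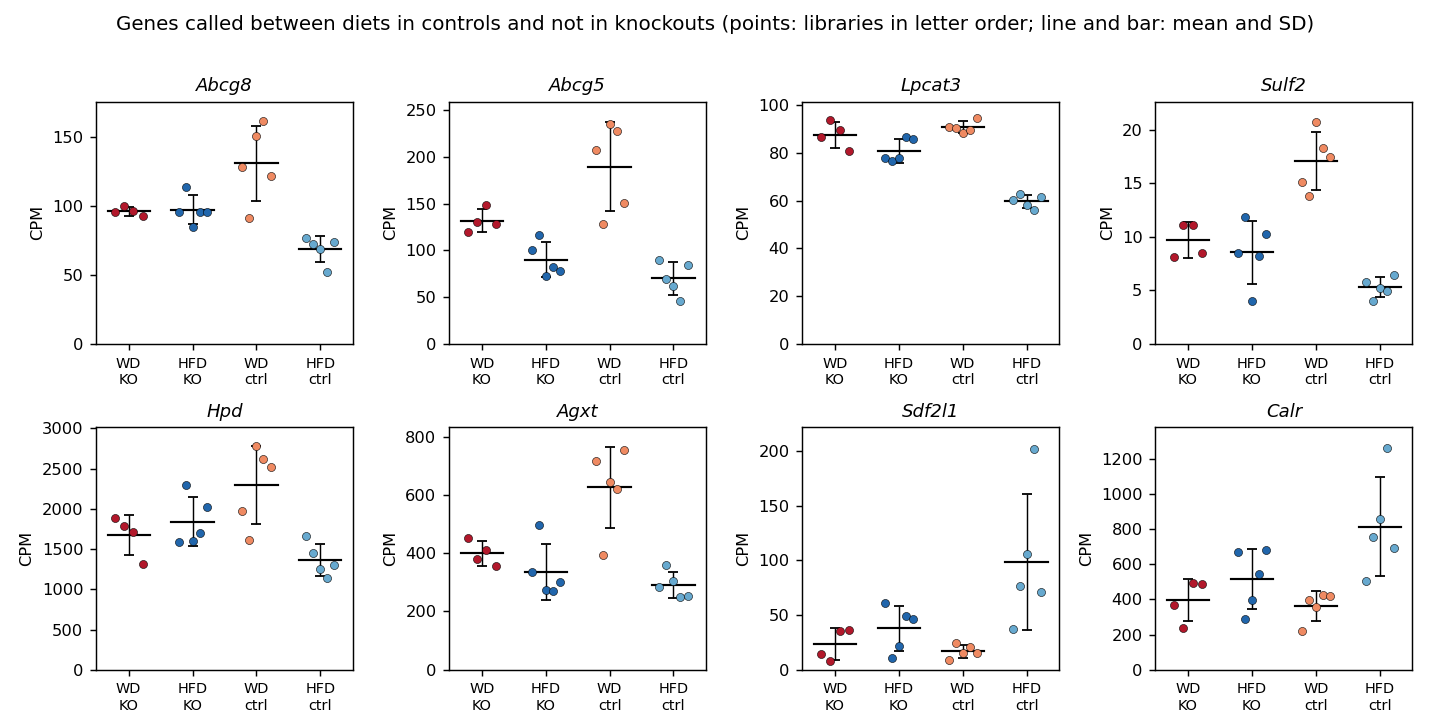
CPM of 8 genes called between the diets in littermate controls and not in Plvap knockouts, by library in the 4 groups, with group means and SD. For Abcg8, Lpcat3 and Sulf2 the control groups do not overlap and the knockout groups do. For Hpd the groups of both genotypes overlap.

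Chaperones of the endoplasmic reticulum were also called in controls alone. Of 20 genes of the unfolded protein response none was called in knockouts by edgeR or DESeq2 and none had an unadjusted p under 0.05, with a median of -0.34, while 6 fell in controls, with a median of -1.06. The difference between genotypes had an unadjusted p under 0.05 for 5 of the 20, against 11.4% of all genes. The 6 control calls rested on single libraries, since edgeR called none without western-diet control A or C or high-fat control C or D, and 13 lower without high-fat control A. In controls DESeq2 called 15 lower, limma-voom 11 and edgeR 8 with the GC trend removed. Sdf2l1, a luminal cochaperone, was at 14.7, 8.28, 35.3 and 36.8 CPM in western-diet knockouts and 60.7, 11, 22.1, 49.2 and 46.2 CPM in high-fat knockouts. The groups overlapped widely, with -0.67 (adjusted p = 0.476) in knockouts, -2.53 (0.0245) in controls and a difference of 1.87 (95% interval 0.25 to 3.48, adjusted p = 0.383). Calr, the chaperone calreticulin, had -0.37 (0.433) and -1.16 (0.0311), and Hspa5, the main luminal Hsp70, had -0.23 (0.741) and -1.34 (0.0639).

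Of the 1049 differences called in knockouts alone, 243 lay in the lowest GC decile, 241 of them higher on western diet, and 102 in the highest, 5 of them higher. Ubqln2 (chromosome X), a shuttle that carries ubiquitinated proteins to the proteasome, was at 30.8, 25.3, 28.1 and 29.2 CPM in western-diet knockouts and 18.8, 15.8, 14.8, 18.9 and 18.3 CPM in high-fat knockouts, against 24.8, 25.6, 22.2, 30.3 and 25.9 CPM in western-diet and 23.1, 25.9, 22.3, 21.9 and 25.8 CPM in high-fat controls. The high-fat knockouts stood below every other library. The log2 fold change was 0.71 ± 0.11 (adjusted p = 0.0024, 0.00177 after GC correction) in knockouts and 0.11 (0.666) in controls, with a difference of 0.60 (95% interval 0.30 to 0.90, 0.191 in edgeR and 0.0317 in DESeq2). Atp8b1, a phospholipid flippase of the bile canaliculus, was at 47.6, 44.5, 44.2 and 51.0 CPM against 29.1, 34.2, 31.2, 32.4 and 25.4 CPM in knockouts. It rose by 0.62 (0.0056, 0.00454 after GC correction) and had 0.04 in controls, with a difference of 0.58 (0.191 in edgeR and 0.0347 in DESeq2).

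Slc40a1, the iron exporter ferroportin, was at 254, 329, 305 and 318 CPM in western-diet knockouts and 183, 163, 226, 181 and 133 CPM in high-fat knockouts. It rose by 0.76 ± 0.15 (adjusted p = 0.00939), with 0.11 (0.793) in controls and a difference of 0.66 (95% interval 0.22 to 1.09, adjusted p = 0.288). Gpld1, a phospholipase that releases GPI-anchored proteins, fell by 0.79 (0.00636, 0.0111 after GC correction) and had -0.21 in controls. Bmp7, a secreted TGF-beta family ligand, was at 0.489, 1.17, 1.48 and 1.15 CPM against 2.82, 2.58, 2.75, 3.14 and 2.81 CPM and fell by 1.35 (0.00638), with -0.16 in controls and a difference of -1.19 (95% interval -1.86 to -0.52, adjusted p = 0.241). All of these stayed called with any single knockout library left out.

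Single members of other pathways were called in the knockouts. Of 16 tested genes of glucose production, Gk, the glycerol kinase, rose by 0.85 (adjusted p = 0.0141), and Aqp9, the channel that admits glycerol to hepatocytes, fell by 0.43 (0.0383). In controls their log2 fold changes were 0.57 and -0.08. There edgeR called none of the 16, with 7 at an unadjusted p under 0.05 (against 15.1% of all genes), and DESeq2 called 5. Sort1, a sorting receptor that binds apolipoprotein B, fell by 0.89 (0.0199) with -0.39 in controls, and Igfbp4, an IGF-binding protein, fell by 0.46 (0.032) with -0.15. Hsp90ab1, a cytosolic chaperone, fell by 0.59 (0.024), and Shmt2, the mitochondrial serine hydroxymethyltransferase, by 0.48 (0.0293). Gclm, which is a subunit of the glutathione-making ligase, rose by 0.39 (0.0375), and Nfil3, a transcription factor tied to the circadian clock, rose by 0.71 (0.0325) with 0.08 in controls. Of these 8 genes Sort1 and Nfil3 stayed called after GC correction, at adjusted p of 0.0472 and 0.0293. Without high-fat knockout E Gk was called, and Aqp9 (0.129), Igfbp4 (0.105), Shmt2 (0.105), Gclm (0.0715), Hsp90ab1 (0.0737), Sort1 (0.0632) and Nfil3 (0.0544) were not. Without western-diet knockout B Igfbp4 (0.0581), Gclm (0.0923) and Hsp90ab1 (0.0718) were not called. With 1 knockout library left out, Gk was called in 9 of 9 runs, Sort1 in 6, and Hsp90ab1 and Nfil3 in 5. Aqp9, Igfbp4 and Shmt2 were called in 4 of these runs, and Gclm in 2.

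Cd4, a T cell coreceptor gene, fell by 1.30 in knockouts (adjusted p = 0.0158, 0.0392 after GC correction), the 1 call among 26 lymphocyte markers. It was called in 7 of 9 runs with 1 knockout library left out. Among the largest changes, Cyp2c55, a cytochrome P450 that hydroxylates arachidonic acid, rose by 1.72 (0.0407, 0.124 after GC correction), and Gldn, a matrix protein of nodes of Ranvier, fell by 2.25 (0.0463, 0.0683 after GC correction). The zinc finger gene Zfp791 fell by 2.01 (0.0205), with a log2 fold change of 0.59 in controls. Cyp2c55 and Gldn were not called without high-fat knockout E (0.0749 and 0.0535) or without western-diet knockout B (0.131 and 0.104). Zfp791 was not called without western-diet B (0.0584). With 1 knockout library left out, Zfp791 was called in 6 of 9 runs, Cyp2c55 in 2 and Gldn in 1. Vbp1, a prefoldin subunit on chromosome X, rose by 0.76 (0.0037) with 0.04 in controls, and Rnf123, a ubiquitin ligase, fell by 0.94 (0.0037) with -0.43. Zdhhc20, a palmitoyltransferase, rose by 0.83 (0.00579) with 0.07 in controls, and Arhgap23, a GTPase-activating protein, fell by 1.00 (0.00618) with -0.09. These last 4 stayed called after GC correction, with log2 fold changes of 0.35 for Vbp1, -0.76 for Rnf123, 0.51 for Zdhhc20 and -0.81 for Arhgap23.

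Csrnp1 and Dock4 were among the 36.6% of tested genes whose log2 fold changes had opposite sign in the 2 genotypes. Csrnp1, a nuclear protein first described as induced by AXIN1, was at 7.43, 5.67, 6.23 and 5.52 CPM in western-diet knockouts and 12.6, 9.17, 12.2, 15.8 and 11.7 CPM in high-fat knockouts, against 13.2, 11.4, 7.91, 7.95 and 11.3 CPM in western-diet and 10.0, 6.60, 5.80, 7.97 and 9.21 CPM in high-fat controls. It fell by 0.99 ± 0.19 in knockouts (adjusted p = 0.00899) and had 0.40 (0.284) in controls. The difference of -1.39 (95% interval -1.93 to -0.85) had an adjusted p of 0.132 in edgeR and 0.00224 in DESeq2. Dock4, an exchange factor for Rac, rose by 0.57 in knockouts (0.0163) and had -0.36 (0.138) in controls, with a difference of 0.93 (0.132 in edgeR and 0.00377 in DESeq2).

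Immediate early genes, transcribed within minutes of a stimulus, had a median log2 fold change of -0.32 in knockouts and 0.44 in controls, and of -0.14 and 0.46 after GC correction. edgeR called none of 22 in either genotype, with 6 in knockouts and 10 in controls at an unadjusted p under 0.05 (against 26.8% and 15.1% of all genes), and DESeq2 called 5 in knockouts and 3 in controls. The difference had an unadjusted p under 0.05 for 10, against 11.4% of all genes, with a smallest adjusted p of 0.191. Btg2, an antiproliferative early response gene, was at 8.32, 8.54, 11.7 and 9.66 CPM in western-diet knockouts and 12.2, 21.7, 13.3, 35.7 and 19.7 CPM in high-fat knockouts, and at 22.8, 12.0, 8.42, 8.13 and 14.9 CPM in western-diet and 11, 4.88, 6.60, 7.26 and 5.03 CPM in high-fat controls. The knockout groups did not overlap and the control groups did. Its difference of -2.04 (95% interval -3.03 to -1.05) had an adjusted p of 0.191 in edgeR and 0.00566 in DESeq2. Egr1, a zinc finger early response factor, had -1.48 (adjusted p = 0.119) in knockouts and 0.61 (0.681) in controls.

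Ribosomal protein genes were lower on western diet in 11 of 80 cases in knockouts and none was higher, with a median of -0.16, and in 3 of 80 in controls, with a median of -0.06. After GC correction 7 were called in knockouts, and the medians were -0.04 in knockouts and -0.05 in controls. Without single knockout libraries 3 to 9 were: 3 without western-diet A or D, 4 without B and 7 without C. Rps6, the small subunit protein phosphorylated by S6 kinase, was at 70.2, 71.6, 80.4 and 70.4 CPM in western-diet knockouts and 112, 124, 118, 121 and 111 CPM in high-fat knockouts, and fell by 0.68 ± 0.09 (adjusted p = 0.00117) beside -0.40 (0.0155) in controls. It was called under every alternative run. Rps13 fell by 0.63 (0.0106) and Rps25 by 0.53 (0.0144). Pseudogene copies of these genes may take part of their reads.

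Most liver endothelial markers were lower on western diet in both genotypes, with 4 of 30 above 0 in knockouts and 3 in controls. Of 30 tested, 8 were called lower and none higher in knockouts, with a median of -0.37. In controls 1 was called lower, with a median of -0.26. After GC correction the medians were -0.24 in knockouts and -0.25 in controls. The difference between genotypes had an unadjusted p under 0.05 for none of the 30, against 11.4% of all genes. The summed CPM of the list was 533 to 572 in western-diet knockouts and 620 to 805 in high-fat knockouts, with no overlap. Controls did not overlap either, at 496 to 623 CPM on western diet and 640 to 716 CPM on high-fat diet. For the knockouts the exact permutation p was 0.0159, or 0.101 after adjustment over the library measures. After GC correction 3 were called, 3 without western-diet C, and 5 without any one of western-diet A, B and D or high-fat E.

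Stab1, a scavenger receptor of sinusoidal endothelium, was at 19.9, 16.7, 18.7 and 17.2 CPM in western-diet knockouts and 27.5, 26.4, 26.8, 26.7 and 42.1 CPM in high-fat knockouts, and fell by 0.73 (adjusted p = 0.0158). Kdr, the VEGF receptor, fell by 0.49 (0.0136), and Dnase1l3, a secreted DNase, by 0.49 (0.0123). Each of the 3 stayed called with any knockout library left out and after GC correction. Clec4g, a sinusoidal lectin, fell by 0.63 (0.0146) and was the endothelial marker also called in controls (-0.72, 0.00486), though not after GC correction in knockouts (0.056). Plvap, the gene deleted in the knockouts, gave no diet call in either genotype. Which cells its RNA came from was not tested.

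Of 24 markers of stellate cells, the cells in which Plvap was deleted, 3 fell in knockouts (Vipr1, Sod3 and Ecm1), with a median of -0.31. Over all genes 8.45% were called there. In knockouts 11 markers had an unadjusted p under 0.05 (against 26.8% of all genes), and DESeq2 called 7. In controls edgeR called none, with 4 at an unadjusted p under 0.05 (against 15.1% of all genes), 1 called by DESeq2 and a median of 0.03. The difference had an unadjusted p under 0.05 for 6, against 11.4% of all genes. Vipr1, a receptor for vasoactive intestinal peptide, was at 11.3, 14.2, 16.5 and 16.0 CPM in western-diet knockouts and 22.2, 26.6, 25.1, 27.8 and 28.2 CPM in high-fat knockouts, and fell by 0.83 ± 0.15 (adjusted p = 0.00662, 0.0251 after GC correction) beside -0.31 (0.299) in controls. Sod3 and Ecm1 were not called without high-fat knockout E (0.0912 and 0.129) or western-diet knockout B (0.0948 and 0.087). Vipr1 was the 1 stellate marker left after GC correction. Vipr1 stayed called with any single knockout library left out, while the list's count was 1 without western-diet A or D or high-fat C or E. Lrat, which esterifies retinol, was at 8.61, 9.58, 12.3 and 13.1 CPM against 12.3, 12.7, 11.2, 13.5 and 11 CPM, with -0.15 (0.503), and Des, the intermediate filament desmin, had -0.04 (0.927). The summed stellate list overlapped between diets, at 916 to 1141 and 832 to 1199 CPM. edgeR called no gene among 27 fibrogenic matrix and activation markers in either genotype, with 4 in knockouts and 5 in controls at an unadjusted p under 0.05 (against 26.8% and 15.1% of all genes), and DESeq2 called 1 in knockouts and none in controls.

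**Figure D5:**
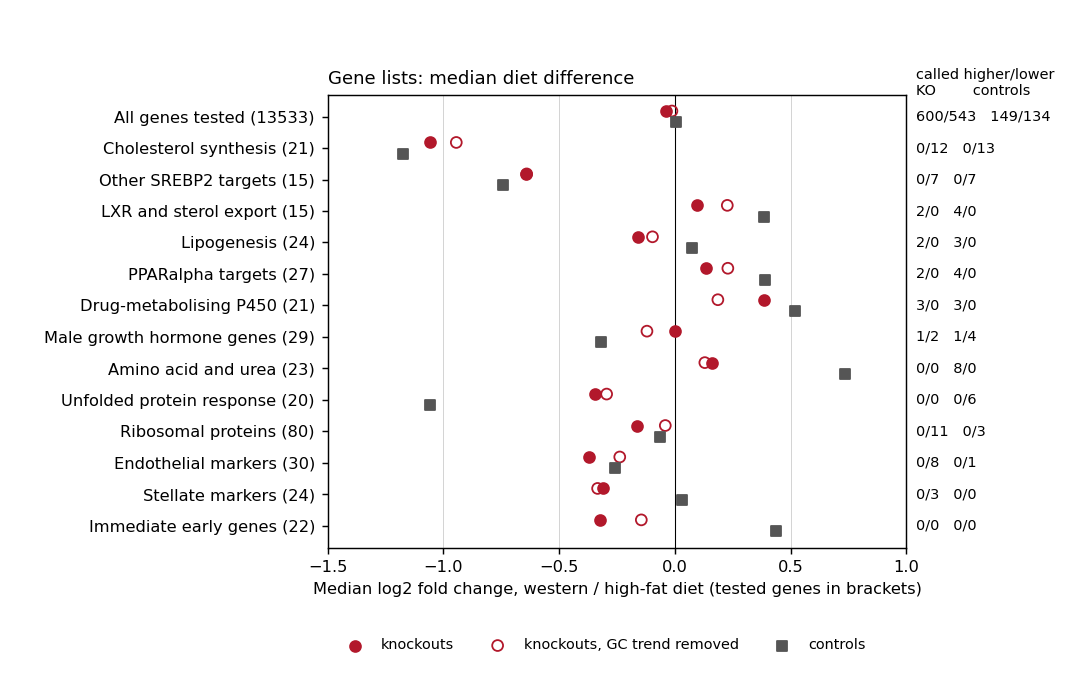
Median log2 fold change between western and high-fat diet of the tested genes of each list, in knockouts and controls, with the numbers called higher and lower at the right. Cholesterol synthesis lies at -1.06 in knockouts and -1.17 in controls, and amino acid breakdown lies at 0.16 and 0.73.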

How the data were processed

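RNA-seq was performed on 12 h fasted mouse livers from the 19 libraries of the 2 diets, 9 of them Plvap knockouts. Total RNA was isolated with a Monarch kit and made into libraries with NEBNext Ultra reagents, per the labels. The deposited values are whole-number read counts per Ensembl gene, made by the authors with STAR 2.7.8a on GRCm39 and featureCounts 2.0 after FastQC 0.11.9 and MultiQC 1.10.1, per the submitters' processing notes. Exon length and coordinates of each gene are deposited beside the counts, per the file headers. The annotation release and the counting strand are not given in the sources used here.

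Groups came from the labels, each of the 19 count columns was matched to 1 library through its label, and 0 columns were left unmatched. Of 55416 genes, 52083 (94%) were given a symbol by Ensembl ID; genes without one held 0.561% of the counts. Library totals ran from 6656342 to 21570506 counts. Counts are reads without molecular identifiers, so counting precision is an upper limit. No batch is named in the labels.

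Counts were scaled by TMM and fitted with edgeR 4.0.16 (R 4.3.3) in 1 model with a mean for each of 4 groups, robust quasi-likelihood dispersions, a low-count filter (filterByExpr, minimum count 10 and total 15) and Benjamini-Hochberg adjustment over 13533 genes, with calls at an adjusted p of 0.05. The contrasts were western minus high-fat diet in knockouts, the same in controls, and the difference of both. All adjusted p-values are edgeR's unless DESeq2 is named. Single values were tested by exact two-sided permutation, for Plvap on log2(CPM + 0.5). Alternatives were DESeq2 1.42.0, its size factors, 2 other filters, limma 3.58.1 (voom with quality weights), a length trend, the compared groups alone, the replicate letter as a block and each library left out. A GC trend (loess, span 0.4, GC content from GENCODE M21 transcripts matched by gene ID) was added after seeing the data, alone and with the block. The scripts were tested on simulated counts with known changes.

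The members and gene lists were chosen with earlier results of these data known. Genes were named by rule: Plvap; the 10 largest rises and 10 largest falls that reached 1 CPM in the higher group, excluding predicted genes and genes whose groups overlap; up to 5 called members of each list; and 5 each way with the smallest p among genes called in 1 genotype and for the difference. Others are named as members of a described list. A few named genes are not reported here. The chow and Cav1 experiments were not used here.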

Additional observations from a re-analysis of the deposited data

Results flagged for a closer look

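The groups of values tested numbered 214, for 88 named genes and 19 library measures in both knockout groups. In 23 of them 1 library stood apart from the rest by Dixon's criterion, 8 in western-diet and 15 in high-fat knockouts. For independent, normally distributed values chance gives about 1 in 20. CPM were tested without a log scale, each flagged library was the highest of its group, and sterol genes recur. The count is therefore not read as an excess over chance. No explanation was tested.

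Replicate E of the high-fat knockouts accounted for 10 of these. It held 64.85 CPM of Sqle with the nearest other library at 16.1, 133.3 CPM of Msmo1 (nearest 52.48), 14.15 CPM of Mvd (4.286), 18.28 CPM of Mvk (9.394), 32.75 CPM of Nsdhl (12.82) and 55.49 CPM of Srebf2 (33.09). It also held 67.22 CPM of Cideb (51), 42.11 CPM of Stab1 (27.55) and 265.7 CPM of Shmt2 (201.4), and its 10 most abundant genes took 18.98% of counts (nearest 17.29%).

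In the other high-fat knockouts, replicate A held 34.5 CPM of C4a (nearest 21.41), a gene with a near-identical copy in C4b, and 4.181 CPM of Gm16731 (1.766). Replicate B held 4.583 CPM of Zfp791 (2.119) and 143.8 CPM of neutrophil markers (35.1), and replicate D held 6.668 CPM of Pdk4 (3.652).

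In western-diet knockouts, replicate B held 62.19 CPM of muscle markers (nearest 1.092), 5.764% mitochondrially encoded counts (4.907%), 18.52 CPM of Msmo1 (12.99) and 0.4563 CPM of Idi1 (0.06424). Replicate D held 32.13 CPM of Cyp51 (18.76), replicate C held 80.42 CPM of Rps6 (71.58) and 128.3 CPM of cholangiocyte markers (70.34), and replicate A held 67.5 CPM of neutrophil markers (17.7).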

How the results depend on the processing

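The 1143 knockout calls became 1751 with limma-voom and 326 with the GC trend removed, and 367 (without western-diet knockout D) to 1307 (without high-fat knockout B) with 1 knockout library left out, and 950 (without high-fat control B) to 1715 (without western-diet control A) with 1 control library left out. The 283 control calls became 590 with DESeq2 and 527 with limma-voom, and 132 (without high-fat control C) to 307 (without western-diet control A) with 1 control library left out, and 247 (without western-diet knockout C) to 335 (without high-fat knockout E) with 1 knockout library left out. The 94 genes called in both became 178 with DESeq2, 164 with limma-voom and 61 with the GC trend removed, and 41 to 133 with any 1 of the 19 libraries left out. The difference between genotypes, called for 0 genes by edgeR, was called for 55 with DESeq2, for 10 with no filter on low counts, and for 0 or 1 with any 1 of the 19 left out. Apart from the replicate block described next, alone or with the GC trend removed, other settings were within 1.5 times of the main counts. In none of these cases was the cause tested.

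Letters did not pair the libraries: the correlations of western-diet with high-fat knockouts of the same letter were -0.169, -0.0437, -0.156 and 0.24. A replicate block on these letters gave 523 knockout calls, 195 in controls, 50 in both and 0 for the difference; with the GC trend removed as well it gave 46 in knockouts and 17 in both.

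Abcg8 in knockouts (log2 fold change -0.0166) reversed to 0.0013 with DESeq2, 7e-04 with its size factors, 0.0039 with the filter at 1 CPM, 0.0134 with the length trend removed, 0.1268 with the GC trend removed and 0.1208 with the block added, and lay between -0.0613 and 0.0467 with 1 library left out. Psmd9 (-0.0534) reversed to 0.0282 and 0.0489 under the last 2 settings, and lay between -0.1021 and 0.0032. Olfr1033 (0.4879) reversed to -0.1341 and -0.147 under those settings. All 3 were uncalled. For the knockout diet differences of the named genes with single knockout libraries left out, 627 values kept direction and side of the threshold. A further 173 lost the call, 5 gained it and 5 reversed. Library number and the counts of low genes limit what can be called.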

Other observations

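Pancreatic markers summed to 19.1 to 29.1 CPM in western-diet knockouts and 29.9 to 49.3 CPM in high-fat knockouts, with no overlap (exact permutation p = 0.0159, 0.101 after adjustment over 19 measures). Controls had 12.18 to 22.04 CPM on western diet and 32.45 to 48.55 CPM on high-fat diet. Of 14 listed genes 2 were tested, and Cela1, an elastase, made up most of the sum in every library. It held 27.58 of 29.08 CPM in western-diet knockout B and 48.03 of 49.29 CPM in high-fat knockout A. Cpb1 and Prss2 were each at 0 in 18 libraries. The sum is therefore mainly a reading of Cela1, and pancreatic cells were not tested for. Cela1 had a log2 fold change of -0.70 (edgeR adjusted p = 0.0237) in knockouts and -1.20 (0.000445) in controls.

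Cell cycle genes had a median log2 fold change of 0.70 in knockouts and 0.97 in controls over 25 tested. edgeR called none in either genotype, with 5 in knockouts and 6 in controls at an unadjusted p under 0.05 (against 26.8% and 15.1% of all genes), and DESeq2 called 1 in knockouts and none in controls. Interferon-induced genes had medians of -0.27 and 0.17 over 34 tested; edgeR and DESeq2 called none in either genotype, and 1 in each had an unadjusted p under 0.05.

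The olfactory receptor genes Olfr1034 and Olfr1033 were among the genes with the smallest p for the difference between genotypes. Olfr1034 had a log2 fold change of 0.99 in knockouts (adjusted p = 0.00939) and -0.44 in controls, and its adjusted p in knockouts was 0.356 with the GC trend removed.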
